A study of Mus musculus with 3 samples.

Results

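A set of 8 named regulators of transcription is described here across 3 RNA sequencing libraries of mouse fetal liver blood progenitors: Runx1, Cebpd, Bcl6, Zeb1, Klf6, Etv5, Ciita and Snai2. They were chosen by name, with earlier results of these data known. All 8 were found, each as 1 row with an accepted status, among 38205 gene identifiers per table. The cells were LSK cells, sorted as negative for lineage markers and positive for Sca1 and c-Kit, a gate in which stem cells and early progenitors of the blood are found. They came from C57Bl/6 embryos at E14.5, pooled from 4 to 5 embryos per genotype. The first library was wild-type (WT), the second came from embryos hemizygous and the third from embryos homozygous for the DNMT3B7 transgene. DNMT3B7 is a shortened DNMT3B, an enzyme that methylates DNA. What promoter drives it is not given in the sources used here. Each genotype had 1 library, so no difference below has a replicate check, no test between genotypes was possible and every comparison is one of libraries.

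Blood cells take their identity from combinations of transcription factors that bind short DNA motifs at the same enhancers and promoters. Runx1 belongs to the Runt family and lets blood stem cells arise from the endothelium of the embryo. Cebpd is a basic leucine zipper factor of granulocytes and monocytes, and Etv5 an ETS factor that acts downstream of growth factor signalling. Bcl6, Zeb1, Snai2 and Klf6 bind DNA through zinc fingers: Bcl6 is a repressor of germinal centre B cells, Zeb1 and Snai2 repress epithelial genes such as that of E-cadherin, and Klf6 is an early response factor. Ciita is a coactivator of the MHC class II genes that does not bind DNA itself, so the 8 genes are regulators of transcription rather than all DNA-binding factors.

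Levels are given as values, the deposited FPKM (fragments relative to transcript length and depth) divided by 4245, the same divisor in all 3 libraries, and 3 values in a row run in the order WT, hemizygous, homozygous. Many genes that every cell uses were listed at or near 0, among them Eef1a1, a translation elongation factor, at 0 in all 3 libraries. Runs of high values stood at the starts of 10 chromosomes, and only genes within these runs and the mRNAs of the mitochondrial genome, 1452 genes in all, were compared. All 8 regulators lie within them, 6 on chromosome 16, Klf6 on chromosome 13 and Zeb1 on chromosome 18. The run on chromosome 16 ends at Morc3, and why values stop there was not tested. The gate markers do not: Ly6a, which encodes Sca1, was listed at 0 in the 3 libraries and Kit at 0, 0.731 and 0.405 (WT, hemizygous, homozygous), so the sort could not be checked on its own genes. The low values implied about 3129060, 3115000 and 2386590 fragments in the WT, hemizygous and homozygous library with the median annotated transcript of each gene, and 5793810, 6049080 and 4894120 with the longest. Of the estimated fragments on the genes compared, 65.8%, 62.1% and 53.4% came from mitochondrial mRNAs, in the same order. The intervals below cover counting error only, not differences between embryos or in library making.

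The 8 regulators spanned more than 2 orders of magnitude in the WT library. The size rule was a log2 ratio of value + 1 of at least 1 in either direction. None of the 7 regulators that were measured passed it between any 2 libraries. Of all genes measured, 4.4% passed it for homozygous versus WT, 2.73% for hemizygous versus WT and 4.57% for homozygous versus hemizygous. The count of 0 of 7 is near these shares. Genes counted as measured in a comparison where 1 of its 2 libraries reached a value of 1, and Snai2 stayed below that throughout. Etv5 had the largest difference, higher in the homozygous library. Klf6, Cebpd and Runx1 were lower there than in the WT library as deposited, under median-ratio scaling and under scaling to the sum of nuclear genes. They were higher than in the WT library when each library was scaled to an equal sum of values, mitochondrial mRNAs included.

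**Figure D1:**
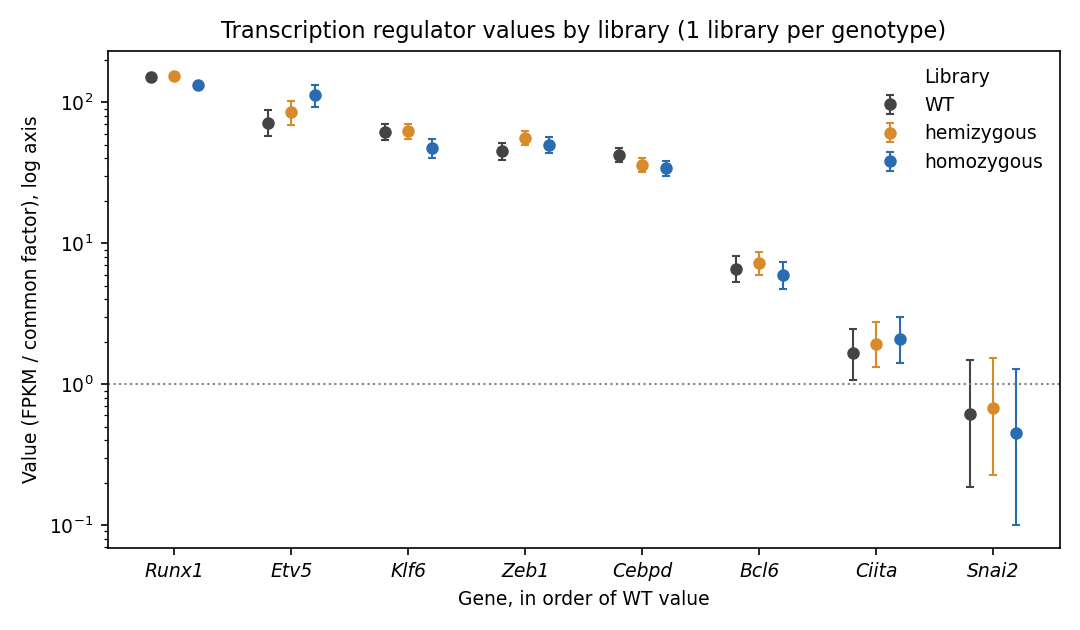
Values of the 8 regulators (FPKM divided by 4245, log axis) in the WT, hemizygous and homozygous library, 1 point per library, with 95% counting intervals and a dotted line at the minimum of 1. Runx1 stood highest in each library, Etv5 was highest in the homozygous library at 112, and the points of Snai2 lay below the line.

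In the WT library the order was Runx1, Etv5, Klf6, Zeb1, Cebpd, Bcl6, Ciita and Snai2. Runx1 ranked 216 among 1061 nuclear protein-coding genes compared, of which 735 had a value of at least 1. Etv5 ranked 371, Klf6 396, Zeb1 441 and Cebpd 450, so these 4 lay close together in the middle of the expressed genes. Bcl6 ranked 623, Ciita 707 and Snai2 762. Over the 3 libraries the ranges of neighbours in this order did not overlap except for Klf6 (47.2 to 62.4) and Zeb1 (45.2 to 56.1). Within the WT library alone, the counting intervals overlapped for Etv5 and Klf6, for Zeb1 and Cebpd, and for Ciita and Snai2. The largest step was that from Cebpd to Bcl6, 6.39-fold in the WT library.

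**Figure D2:**
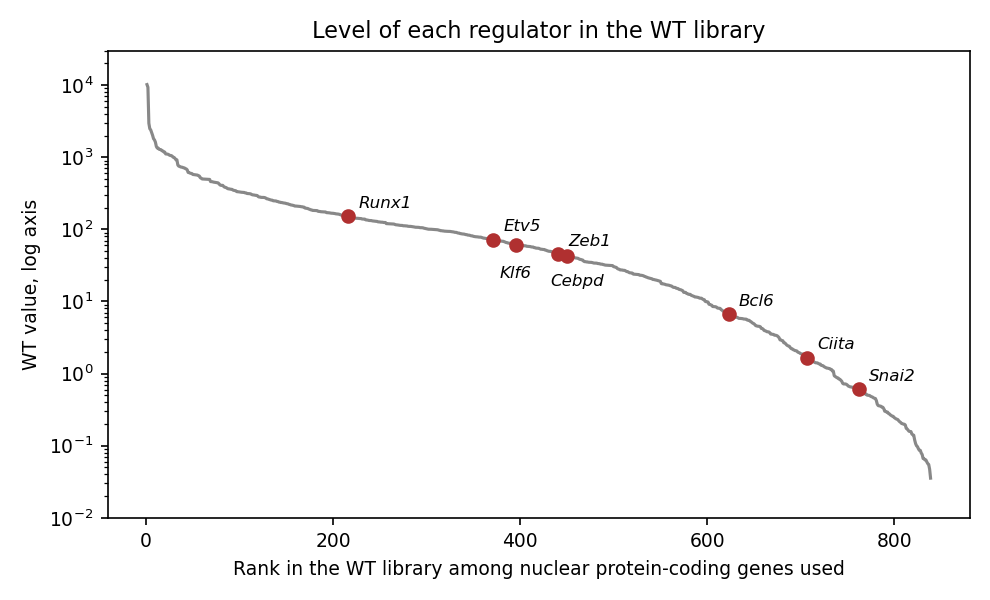
WT values (log axis) of the nuclear protein-coding genes compared, by rank, as a line, with the 8 regulators as points and genes at 0 not drawn. Runx1 lay at rank 216 of 1061, Etv5, Klf6, Zeb1 and Cebpd between ranks 371 and 450, and Bcl6, Ciita and Snai2 further down.

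Runx1 (ENSMUSG00000022952) stood at 152 (WT), 153 (hemizygous) and 132 (homozygous). The WT and hemizygous libraries were alike and the homozygous one was lower. The estimated fragments behind these values were 1432, 1527 and 1194, the most of any of the 8 genes. The log2 ratio of value + 1 was 0.01 ± 0.05 (counting SE) for hemizygous versus WT and -0.19 ± 0.06 for homozygous versus WT, with a 95% counting interval of -0.30 to -0.08. Between the 2 transgenic libraries it was -0.21 (-0.31 to -0.10). Of 798 genes that reach 5 in the homozygous or WT library, 326 had a larger ratio in size than Runx1, so a difference of this size was common in the pair of libraries. Scaling the libraries to equal sums, mitochondrial mRNAs included, turned the homozygous versus WT ratio to 0.36 and the homozygous versus hemizygous ratio to 0.15. Under median-ratio scaling these ratios were -0.16 and -0.15. An annotated antisense transcript, AL672278.1, shares 0.881% of the exon bases of Runx1 and had at most 3.05 estimated fragments in a library.

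Runx1 is transcribed from a distal and a proximal promoter, which give proteins with different starts, and the deposited values add both. Both stretches are shown because the gene-level value cannot tell them apart and because they differ in CpG content, the dinucleotide that DNA methyltransferases act on. The letters come from RefSeq on GRCm38.p6, not the build named for the files, and were matched by symbol. They run 5′ to 3′ on the minus strand and end before the first annotated exon base, with each CpG in capitals. The distal stretch is chr16:92826150-92826324 and the proximal one chr16:92697330-92697579.
Runx1 distal: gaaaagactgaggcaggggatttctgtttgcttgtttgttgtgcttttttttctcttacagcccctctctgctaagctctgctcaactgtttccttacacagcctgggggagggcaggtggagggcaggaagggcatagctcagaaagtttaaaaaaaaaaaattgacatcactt
Runx1 proximal: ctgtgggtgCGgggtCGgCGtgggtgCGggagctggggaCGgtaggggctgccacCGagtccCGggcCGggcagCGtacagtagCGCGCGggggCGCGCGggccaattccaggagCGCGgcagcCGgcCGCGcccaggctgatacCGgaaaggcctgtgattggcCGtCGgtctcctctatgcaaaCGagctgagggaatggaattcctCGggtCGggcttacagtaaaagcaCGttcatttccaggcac

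The distal stretch of 175 bases holds 0 CpG and the proximal stretch of 250 bases holds 27. Over the full 250 bases before each RefSeq start, the distal window holds 2 CpG, and 81.2% of all 32851 such windows hold at least as many. For the proximal window 8.56% do. Methylation was not measured in these libraries, so the counts describe the reference sequence alone.

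Etv5 (ENSMUSG00000013089) stood at 71.9 (WT), 84.8 (hemizygous) and 112 (homozygous). It stood lowest in the WT and highest in the homozygous library, an order found for 14.6% of 753 nuclear genes that reach 5 in all 3 libraries. The log2 ratio to WT was 0.24 (95% counting interval -0.17 to 0.64) for the hemizygous and 0.63 (0.24 to 1.03) for the homozygous library, a plain ratio of 1.56-fold. Between the transgenic libraries it was 0.40 (0.03 to 0.77). For homozygous versus WT 25 of the 798 genes had a higher ratio, and 60 of the 753 genes had a larger range over the 3 libraries. Under sum scaling the homozygous versus WT ratio was 1.19 and passed the size rule.

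The depth behind Etv5 depends on the transcript taken. Its 5 annotated transcripts run from 342 to 3975 bases with a median of 489, which gives 83.9, 105 and 125 fragments, while the longest gives 1096, 1368 and 1634. With the longest transcript the interval for homozygous versus WT narrowed to 0.53 to 0.74 and that for hemizygous versus WT to 0.12 to 0.35, clear of 0. Of the 50-base stretches of its transcripts, 24.5% also occur in the processed pseudogene Gm4798, and the assignment of such reads is not given in the sources used here. Bases before its first start are shown for comparison with the Runx1 promoters. They are chr16:22439720-22439820 on the minus strand of GRCm38.p6, from RefSeq, with CpG in capitals.
Etv5: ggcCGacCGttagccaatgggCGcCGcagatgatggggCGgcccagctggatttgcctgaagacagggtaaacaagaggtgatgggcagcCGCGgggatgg

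These 101 bases hold 7 CpG, and the full window of 250 bases before that RefSeq start holds 27, as many as the proximal Runx1 window. Windows were found for 4 of the 8 genes, Runx1, Etv5, Bcl6 and Klf6, 7 windows in all, with a median of 21 CpG against 6 over all windows. The motif of KLF and SP factors, GGGCGG on either strand, is in 3 of the 7 and in 32.7% of all windows. The E-box of ZEB and SNAI factors, CAGGTG on either strand, is in 1 of the 7, the distal Runx1 window, and in 17.2% of all. A form of the core of the RUNX motif, TGTGGT on either strand, is in 0 of the 7 and in 14.0% of all. Other forms of that core were not searched for. A match describes these letters and is not a site.

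**Figure D3:**
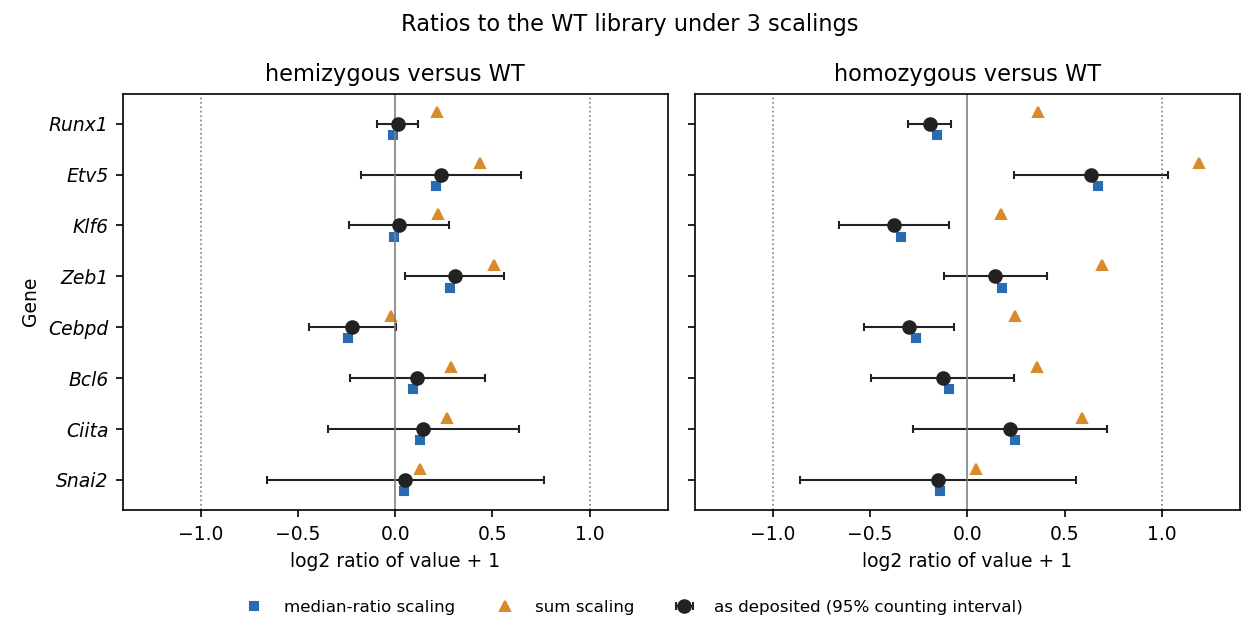
Log2 ratio of value + 1 to the WT library for each regulator, hemizygous at left and homozygous at right, with 95% counting intervals as deposited (black), median-ratio scaling (squares) and sum scaling (triangles). Dotted lines mark the size rule, which only Etv5 under sum scaling passed (1.19), and Snai2 lay below the minimum value.

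Klf6 (ENSMUSG00000000078) stood at 61.6 (WT), 62.4 (hemizygous) and 47.2 (homozygous). As for Runx1, the first 2 libraries were alike and the homozygous one lower. Its log2 ratio was 0.02 ± 0.13 (counting SE) for hemizygous versus WT, -0.38 ± 0.14 for homozygous versus WT and -0.39 ± 0.14 for homozygous versus hemizygous. The 95% counting interval of the second was -0.66 to -0.09. Of the 798 genes, 87 had a lower ratio for homozygous versus WT. Sum scaling gave 0.17 for homozygous versus WT and -0.046 between the transgenic libraries. Median-ratio scaling gave -0.34 and -0.33.

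Cebpd (ENSMUSG00000071637) was highest in the WT library at 42.2, followed by 36.1 (hemizygous) and 34.1 (homozygous). This falling order over the libraries held for 20.2% of the 753 genes. The log2 ratio was -0.30 (95% counting interval -0.53 to -0.07) for homozygous versus WT and -0.22 (-0.44 to 0.002) for hemizygous versus WT. With the longest transcript the second interval was -0.38 to -0.06. Sum scaling gave 0.25 and -0.02 for these 2 comparisons, and median-ratio scaling gave -0.26 and -0.25. Exons of the neighbour listed as 2310008H04Rik, on the opposite strand, overlap 15.0% of the exon bases of Cebpd, and the strand setting of the counting is not given in the sources used here. That gene had values of 31.6, 30.6 and 27.9, so it too was lowest in the homozygous library. Mmp8, a neutrophil collagenase and the only one of 12 granulocyte and monocyte markers among the genes compared, was at 3.41, 3.64 and 1.61. Its part in the values of Cebpd was not tested, and in bulk samples fewer cells of a type and less RNA per cell cannot be told apart.

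Zeb1 (ENSMUSG00000024238) was lowest in the WT library at 45.2, highest in the hemizygous at 56.1 and at 50.03 in the homozygous library. The log2 ratio was 0.31 (95% counting interval 0.05 to 0.56) for hemizygous versus WT and 0.14 (-0.12 to 0.41) for homozygous versus WT. With the longest transcript the second interval was 0.02 to 0.26. Between the transgenic libraries the ratio was -0.16 (-0.41 to 0.09), and -0.28 to -0.05 with the longest transcript. Under sum scaling the 3 ratios were 0.51, 0.69 and 0.19, so the direction between the transgenic libraries turned. Gm10125, annotated on the opposite strand at 1.93% of the exon bases of Zeb1, was also highest in the hemizygous library, with 11.0, 14.3 and 11.0. The log2 ratio of Gm10125 for hemizygous versus WT was 0.35 ± 0.25 (counting SE), so this order was within the counting error. Of the 50-base stretches of Zeb1, 0.228% occur in other genes.

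Bcl6 (ENSMUSG00000022508) stood near 6 or 7 in each library, with 6.61 (WT), 7.23 (hemizygous) and 5.97 (homozygous). These values rested on an estimated 94.2, 109 and 81.2 fragments. Its log2 ratios were 0.11 (95% counting interval -0.23 to 0.46) for hemizygous versus WT and -0.13 (-0.50 to 0.24) for homozygous versus WT. A difference was not detectable at this depth, and the interval of the plain ratio for homozygous versus WT ran from 0.67 to 1.21. Of 18 corepressors and targets listed for Bcl6, 3 were among the genes compared. None passed the size rule in any comparison, where 2.73% to 4.57% of all genes measured did. The count of 0 of 3 is near that share. Cd86, a costimulatory receptor ligand of antigen-presenting cells, was at 81.3, 59.9 and 65.3, and Cd80, of the same function, at 4.46, 2.65 and 6.22. Socs1, an inhibitor of cytokine signalling, was at 20.2, 17.9 and 23.2.

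Ciita (ENSMUSG00000022504) was barely above the minimum, with 1.66, 1.94 and 2.10 (WT, hemizygous, homozygous) from 24.6, 30.4 and 29.7 estimated fragments. The plain ratio for homozygous versus WT was 1.26, with a 95% counting interval of 0.74 to 2.15, so the values cannot be ordered. Dexi, its neighbour, overlaps 3.45% of its exon bases on the opposite strand and was at 57.8, 41.2 and 32.1, lowest in the homozygous library, with a log2 ratio to WT of -0.83 ± 0.14 (counting SE) there. Of 19 genes listed as MHC class II genes or partners of Ciita, only Ciita and Crebbp were among the genes compared. Crebbp, a histone acetyltransferase and coactivator, was at 43.2, 62.5 and 47.8, which is a log2 ratio of 0.52 for hemizygous versus WT. Of 10 dendritic cell markers, which include class II genes, only Cd80 and Cd86 could be read, with a summed value of 85.7, 62.6 and 71.5.

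Snai2 (ENSMUSG00000022676), a factor of neural crest and mesenchymal cells that also protects blood progenitors from radiation-induced death, stayed under 1 in each library. Its values were 0.615, 0.675 and 0.453, from an estimated 4.52, 5.25 and 3.18 fragments. The 95% counting intervals of these values reached from 0.10 to 1.55 over the libraries, so neither a difference nor the side of the minimum can be read for a single library. Of its 50-base stretches, 0.963% occur in other genes. Among the genes of its list, the ZEB, SNAI and TWIST factors with their corepressors and cadherin genes, only Zeb1 and Snai2 of 13 were compared.

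The first comparison set the homozygous against the WT library. Of the 7 regulators measured, 0 passed the size rule, where 4.4% of the 955 genes measured did, 2.09% higher and 2.3% lower, so the count of 0 is near the background. The counting interval excluded 0 for 4 of the 7, Runx1, Cebpd, Klf6 and Etv5, and for 5 with the longest transcripts. The share of all genes measured with such an interval is not given, so this count has no background. The median log2 ratio was -0.13 over the 7, against -0.04 over the 955 genes. Of the 7, 3 lay above 0, where 43.8% of the 955 genes did. Sum scaling, which moved the median of all genes by 0.53, put all 7 above 0, and median-ratio scaling, which moved it by 0.03, left 3 above 0.

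The next set the hemizygous against the WT library. Again 0 of the 7 passed the size rule, against 2.73% of 954 genes, 1.78% higher and 0.943% lower. The ratios ran from -0.22 for Cebpd to 0.31 for Zeb1, with a median of 0.11 against 0.02 over all genes measured. Of the 7, 6 lay above 0, where 54.1% of all genes measured did. Runx1 and Klf6 lay nearest to 0 and their sign turned under median-ratio scaling, to -0.013 and -0.0057. Only the counting interval of Zeb1 excluded 0, and those of Zeb1, Etv5 and Cebpd did with the longest transcripts. Here too no share over all genes measured stands beside the count.

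The last set the homozygous against the hemizygous library, both used above. Here 0 of 7 passed the size rule, against 4.57% of 962 genes, 1.66% higher and 2.91% lower. Ratios ran from -0.39 for Klf6 to 0.40 for Etv5, with a median of -0.16 against -0.06 over all genes measured. Of the 7, 2 lay above 0, where 39.1% of all genes measured did. Sum scaling, which moved the median of all genes by 0.35, put 6 of the 7 above 0 with a median of 0.19, and median-ratio scaling left 2 above 0. The hemizygous library held the highest value for 5 of the 8 regulators. Among the 753 genes that reach 5 in all libraries, it did so for 4 of the 6 regulators and for 39.4% of all. For Runx1 and Klf6 the lead over WT was within the counting error and turned under median-ratio scaling, and Snai2 was below the minimum. With the median transcript, the intervals of Bcl6 included 0 for hemizygous versus WT (-0.23 to 0.46) and homozygous versus hemizygous (-0.60 to 0.12). That of Zeb1 for homozygous versus hemizygous did too (-0.41 to 0.09). Under sum scaling the homozygous library was the highest for Runx1, Bcl6 and Zeb1, with ratios to the hemizygous library of 0.15, 0.068 and 0.19.

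**Figure D4:**
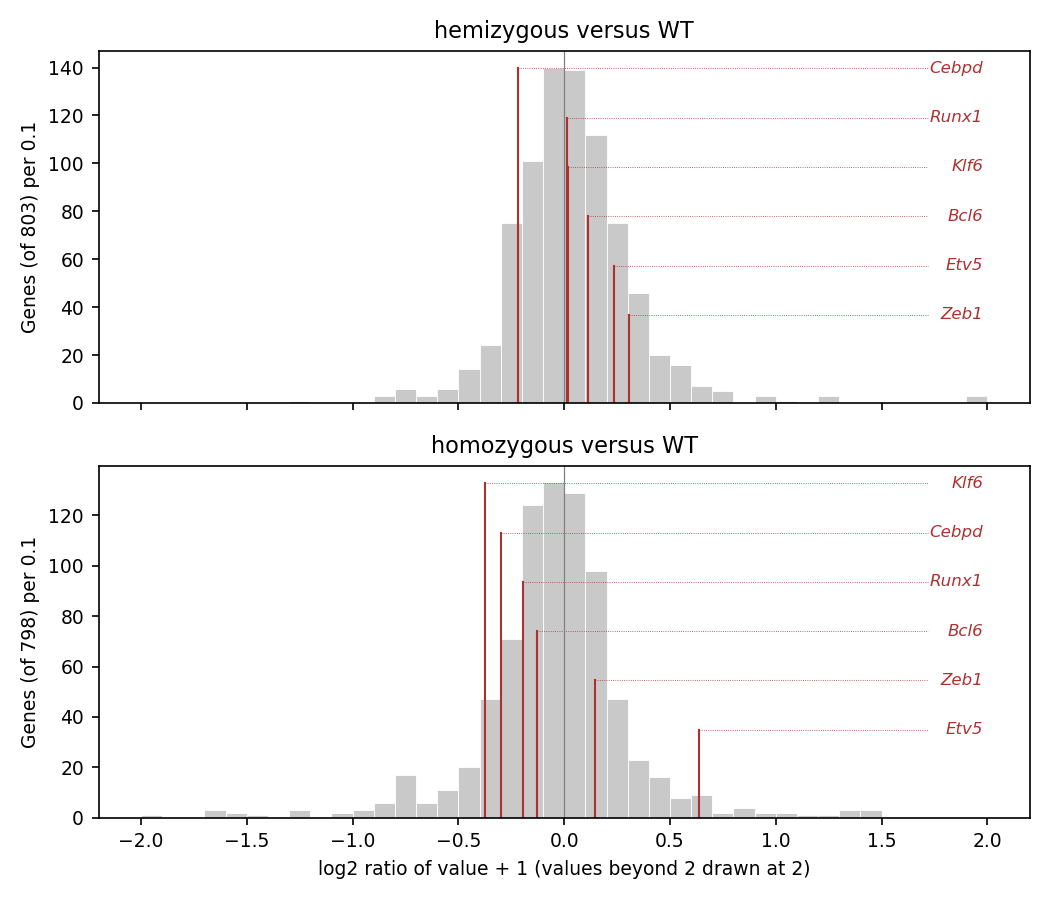
Histograms of the log2 ratio of value + 1 for hemizygous versus WT (803 genes) and homozygous versus WT (798 genes) for genes that reach 5 in 1 of the 2 libraries, with 6 regulators as red lines. In the lower panel Etv5 lies at 0.63 in the upper tail and Klf6 at -0.38 is the lowest of the 6.

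Other regulators, with target genes listed for them, were looked at from lists named with the processing. Besides the 8 genes the lists held 572 symbols, of which 31 were among the genes compared and 27 measured. The 27 include Cd80, Cd86 and Socs1, listed as targets of Bcl6, so the counts below are of a mixed set. None of 20 further stem cell factors, such as Gata2, Tal1 or Lmo2, could be read, nor any other Runt, C/EBP or KLF gene. For homozygous versus WT 0 of the 27 passed the size rule, against 4.4% of all genes measured, and 11 lay above 0, against 43.8% of all genes, with a median of -0.11 against -0.04. For hemizygous versus WT, where 2.73% of all genes did, 1 of the 27 did, Zbtb20, a repressor of the BTB zinc finger family like Bcl6, with values of 1.89, 4.94 and 1.67 and a log2 ratio of 1.04 ± 0.59 (counting SE) from 4.10, 11.3 and 3.46 estimated fragments. Between the transgenic libraries Zbtb20 (-1.15) and Hes1 (-1.09), a repressor induced by Notch signalling (33.0, 41.5 and 18.9), passed it as lower in the homozygous library, 2 of 27 against 4.57% of all genes. There 5 of the 27 lay above 0, the listed targets Cd80, Cd86 and Socs1 with Tfdp1 and Zfp958, against 39.1% of all genes. The median was -0.20 against -0.06.

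The one other ETS gene, Gabpa, had values of 178, 226 and 198, with log2 ratios to WT of 0.34 for hemizygous and 0.16 for homozygous, so unlike Etv5 it was highest in the hemizygous library. Bach1, a repressor of haem-responsive genes, was at 100.1, 114 and 112, and Nrip1, a corepressor of nuclear receptors, at 80.2, 119 and 106. Tfdp1, the partner of E2F factors, was the most abundant listed regulator at 1273, 1337 and 1409. Rela, a subunit of NF-kB, was at 214, 211 and 201, and Nfkbiz, a regulator of NF-kB in the nucleus, at 15.7, 17.1 and 11.8. Crem, a factor of cyclic AMP signalling, was at 48.0, 47.0 and 41.7. The 12 genes with a zinc finger symbol were taken by symbol alone, not by function. Of these, Zfp263 (168, 195 and 149) and Zfpl1 (182, 169 and 147) stood highest. Zfp597 (45.2, 41.8 and 33.7) had the lowest homozygous versus WT ratio of the 12, -0.41.

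**Figure D5:**
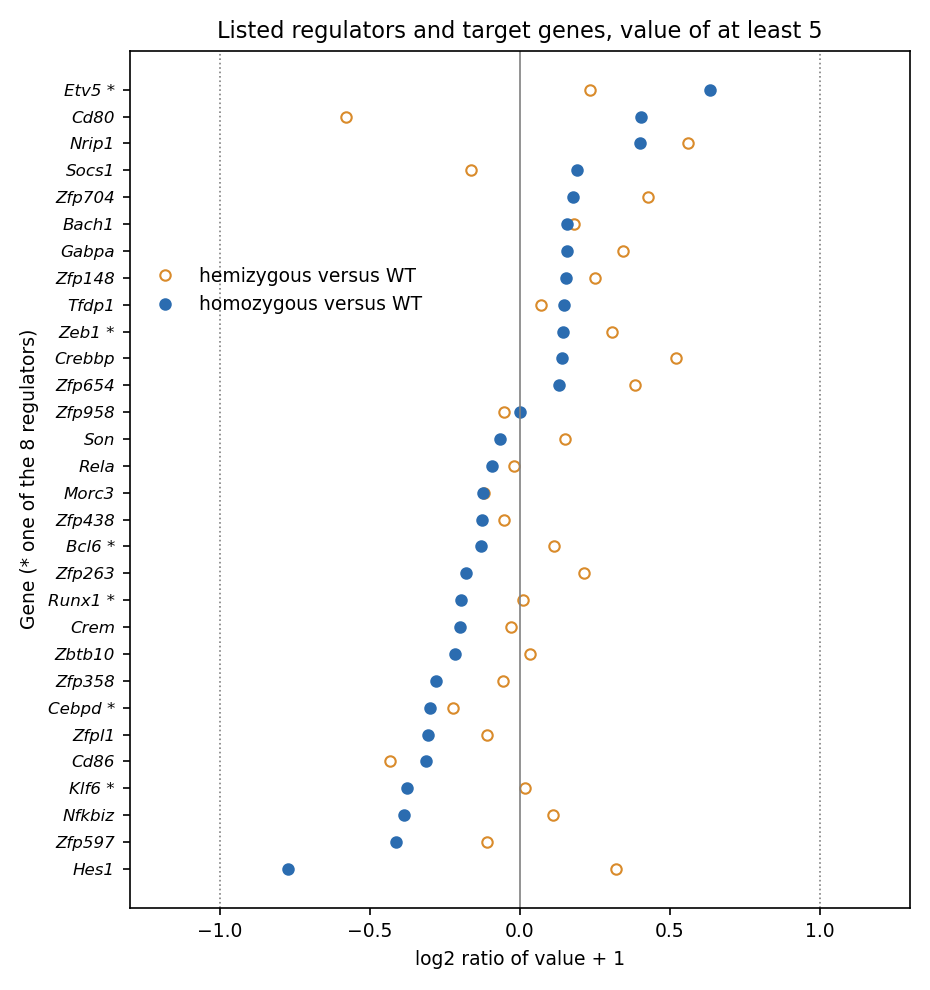
Log2 ratios of value + 1 to the WT library for hemizygous (open) and homozygous (filled) libraries, for listed regulators and target genes that reach 5 in 1 library; an asterisk marks the 6 of the 8 regulators that reach it. All filled points lie between -0.77 for Hes1 and 0.63 for Etv5, inside the dotted lines of the size rule.

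The nearest genes by likeness of pattern were those with the smallest distance in the pair of ratios to WT, over 3 libraries and 752 other nuclear genes that reach 5 in each. For Runx1 they were Ccdc14, Tpd52 and Ankrd10, at distances of 0.02 to 0.03. For Klf6 they were Carhsp1, Klc2 and Tcirg1, and for Zeb1 Atg2a, Ncoa1 and the pseudogene Gm5479. For Bcl6 Mmp12, Snx32 and Arl6 were nearest, and for Cebpd B4galt4 and the pseudogenes Gm7541 and Gm15466. For Etv5 they were Synj2 (7.71, 8.97 and 12.7), Dnase1 (52.6, 62.9 and 85.0) and Gcsam (11.3, 13.2 and 18.8), at 0.04 to 0.06. With 3 libraries such likeness is a description of 2 ratios.

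Neighbouring protein-coding genes were compared with each regulator to see whether its values were shared locally. Beside Runx1, Setd4 was at 22.1, 23.5 and 25.8 and Clic6 at 0.83, 0.92 and 1.60, both highest in the homozygous library, where Runx1 was lowest, though the counting SE of the log2 ratio to WT was 0.27 for Setd4 and 0.37 for Clic6. Beside Etv5, Tra2b was at 961, 959 and 909 and Dgkg at 5.82, 8.22 and 6.13, neither in its order. Mzt2 beside Cebpd was at 131, 105 and 128. Zfp438 and Arhgap12 beside Zeb1 were at 10.03, 9.64 and 9.12 and at 54.7, 61.1 and 52.7. Lpp beside Bcl6 was at 10.6, 14.2 and 10.5, highest in the hemizygous library as Bcl6 was. Beside Klf6, Akr1e1 was at 34.0, 30.4 and 30.02 and Pitrm1 at 1.71, 2.46 and 1.64. Besides Dexi, Ciita is flanked by Tvp23a, at 17.0, 18.2 and 14.8. Rtp2 beside Bcl6 and Efcab1 beside Snai2 were listed at 0 in the 3 libraries, and A630010A05Rik beside Snai2 at 0, 0.256 and 0.

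Markers of other cells were read beside the regulators. Of 11 B cell precursor markers 3 could be read, Igll1, Vpreb1 and Vpreb2, with a summed value of 517 (WT), 400.4 (hemizygous) and 192 (homozygous). All 3 passed the size rule as lower for homozygous versus WT, against 4.4% of all genes measured. For homozygous versus hemizygous 2 did, against 4.57%, and for hemizygous versus WT 0 did, against 2.73%. No member of another marker list passed it, but few members of each could be read. Of 9 endothelial and vessel wall markers Col4a1 and Col4a2 could be read, with sums of 52.6, 68.1 and 99.3, the same order as Etv5. The 4 of 10 erythroid markers summed to 3987, 4012 and 3285, a sum carried by Car2 and Tfrc, with homozygous versus WT log2 ratios of -0.30 and -0.34, while Car1 was at 0.24. The 2 of 8 megakaryocyte markers summed to 22.0, 20.8 and 34.9, and they differed in direction, with Gp5 at 16.5, 17.7 and 30.1 and Gp1bb, at 3.09 and 4.76 in the transgenic libraries, with a homozygous versus WT log2 ratio of -0.17. Ahsg, the only one of 10 hepatocyte markers, was at 3.70, 3.49 and 3.67, and no listed macrophage gene could be read. No readable marker was at 0. The part of these cells in the values of the 8 regulators was not tested.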

How the data were processed

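RNA from 1 pooled library per genotype was sequenced. The authors deposited gene-level FPKM beside an estimate status, as the file headers show. Per the submitters' processing notes, reads were handled with TopHat2, Bowtie2 and Cufflinks on mm9. For their versions and the annotation, nothing is stated in the sources used here. Deposited FPKM summed to far more than that unit allows, so all values were divided by 4245. This factor leaves plain ratios as deposited, but it sets the weight of the 1 added in log2 ratios of value + 1. It also sets which genes reach the minimum. For Snai2, homozygous versus WT, the plain log2 ratio was -0.44 and that of value + 1 was -0.15. Rows with status OK were used, with the highest row per identifier. Of 38205 identifiers, 95.4% were found in GENCODE mouse release M21 (GRCm38), which gave types, lengths and order. A break was fitted by maximum likelihood on each chromosome to the fraction of protein-coding genes whose mean FPKM reached 200000, and 10 segments with a log likelihood gain of at least 10 were kept, a setting chosen after the values were seen. One fragment was read from the commonest low value of FPKM times length less 200 bases among genes with 1 transcript, and 69.1% to 72.1% of low values lay within 0.05 of a whole multiple. Counting standard errors follow by the delta method from estimated fragments. Steps were tested on simulated data. Python 3.11.15, numpy 2.4.6, pandas 2.3.3, scipy 1.17.1 and matplotlib 3.10.9 were used.

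The members and lists were chosen with earlier results of these data known. The named genes were the 8 regulators, listed genes that reach 5 in 1 library, the 3 nearest genes by the 2 ratios to WT for regulators with a WT value of at least 5, and the nearest protein-coding neighbours. Zbtb20, the low neighbours, overlapping transcripts and Gm4798 were named after their values or matches were seen. Mmp8 and Ahsg do not reach 5 and were also named, each as the only gene of its marker list among those compared. Lists covered Runt, C/EBP, KLF and SP, ETS, ZEB and SNAI factors, Bcl6 and Ciita partners and targets, stem cell factors, other regulators and zinc finger genes, and markers of the gate, hepatocytes, endothelium, erythroid, megakaryocyte, granulocyte and monocyte, macrophage, B cell precursor and dendritic cells. Alternatives were pseudocounts of 0.1 and 5, sum, median-ratio and nuclear sum scaling, other minimum values, summed rows and the longest transcript.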

Additional observations from a re-analysis of the deposited data

How the results depend on the processing

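Of the 24 log2 ratios of the 8 regulators, all stayed within their counting intervals with a pseudocount of 0.1 or 5, with summed rows, under median-ratio scaling and under scaling to the sum of nuclear genes, which was added after the data were seen. Sum scaling over all genes compared moved 11 of the 24 beyond those intervals. For homozygous versus WT it gave 0.36 for Runx1, 0.25 for Cebpd, 0.36 for Bcl6, 0.69 for Zeb1, 0.17 for Klf6 and 1.19 for Etv5. For hemizygous versus WT it gave 0.22 for Runx1. For homozygous versus hemizygous it gave 0.15 for Runx1, 0.27 for Cebpd, 0.19 for Zeb1 and -0.046 for Klf6. That sum includes the mitochondrial mRNAs, whose share of fragments went from 65.8% (WT) to 53.4% (homozygous).

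Counts of genes past the size rule are given as higher and lower. For homozygous versus WT they were 20 and 22, with 1 and 9 at a pseudocount of 5, 61 and 9 under sum scaling, and 10 and 12 at a minimum value of 5. For hemizygous versus WT they were 17 and 9, with 27 and 16 at a pseudocount of 0.1, 4 and 0 at 5, and 7 and 1 at a minimum value of 5. For homozygous versus hemizygous they were 16 and 28, with 28 and 46 at a pseudocount of 0.1, 1 and 8 at 5, 33 and 15 under sum scaling, and 5 and 14 at a minimum value of 5. WT levels were the same with summed rows. No paired analysis was possible because each genotype had 1 library. Depth limited Snai2 and Ciita. Ciita had 24.6 to 30.4 estimated fragments per library with the median transcript and 39.0 to 48.2 with the longest, and the longest transcript changed the counting error of Runx1, Zeb1, Klf6 and Etv5 by more than 1.5-fold.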
